A study of Mus musculus with 6 samples.

Results

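Most of the 10 genes described here encode ligands and receptors through which myeloid cells restrain T cells or are themselves restrained. Ido1 encodes an enzyme, and Il4ra a cytokine receptor chain used as a marker of suppressor cells. The 10 genes are Cd274, Pdcd1lg2, Vsir, Lgals9, Havcr2, Sirpa, Cd84, Il4ra, Tgfb1 and Ido1. They were taken by name from the 19162 genes of the deposited table. The symbol search found 9 of them, and Vsir was found by its gene ID, which the table lists under the older symbol 4632428N05Rik. All 10 passed the filter on low counts, which kept 13326 genes.

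Marrow cells from C57BL/6J mice were kept in culture for 4 days under GM-CSF at 40 ng/mL, a growth factor of granulocytes, macrophages and dendritic cells. The control group had no addition (3 libraries, numbered 1, 2 and 4), and the KCl group had 34.7 mM of extra potassium chloride (3 libraries with the same numbers). The series calls the cells bone marrow myeloid-derived suppressor cells (BM-MDSCs), immature myeloid cells that hold back T cells. The comparison asks how these genes stand under high potassium. Potassium chloride also raises osmolality, and with no other salt or solute analysed here the effects of potassium and of osmolality cannot be told apart.

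As background, PD-L1 (from Cd274) and PD-L2 (from Pdcd1lg2) bind PD-1 on T cells and damp their activation. Several of the receptors carry tyrosine motifs in their tails that recruit the phosphatases SHP-1 and SHP-2, which switch off activating signals. Secreted TGF-beta 1 and the tryptophan-degrading enzyme IDO1 act on neighbouring cells, and all of these are studied as means by which suppressor cells limit immunity to tumours.

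Library totals ranged from 14118724 counts (control 4) to 21694831 counts (control 2). Control 4 and KCl 4 tracked the remaining libraries too closely to be independent of them. CPM is a gene's count scaled for library depth. Across 8231 genes averaging 300 counts or more, the log2 ratio of the mean CPM of these libraries to that of the other 4 had an SD of 0.0095, against 0.0439 for counting noise and 0.123 to 0.262 for the 14 other pairs of libraries. For the 10 genes the same ratio, not on a log scale, lay between 0.991 and 1.026. Tests on all 6 libraries can thus give p-values that are too small, and for each of the 10 genes the log2 fold change from replicates 1 and 2 alone is also given. Of the marker lists, the pan-myeloid genes (Ptprc, Itgam, Spi1, Csf2ra, Csf2rb and Cebpa) summed to between 4255 and 4972 CPM in control and between 4607 and 4960 in KCl, although 3 of these 6 (Spi1, Csf2ra and Cebpa) were called higher. A second gene ID under the symbol Itgam, with 5213 to 8486 counts per library, was not part of this list. Lymphocyte genes summed to at most 53.4 CPM in any library, with 25.5 to 33.9 in control and 43.9 to 53.4 in KCl. More abundant lists also separated the groups. The 12 neutrophil genes summed to 15545 to 16928 CPM in control and 18825 to 24384 in KCl, and 8 monocyte genes to 1510 to 1773 and 2210 to 2374. On the same scale, control first, 11 dendritic cell genes summed to 5552 to 7501 and 3960 to 5171, and 11 eosinophil, basophil and mast cell genes to 2470 to 2714 and 1098 to 1290. Abundant genes weigh most in such sums. Of the last 11 genes, 5 were called lower and 6 were not called, with a median log2 fold change of -0.025. Of the tested genes, 4 of 12 neutrophil and 5 of 8 monocyte genes were called higher, and 5 of 10 dendritic cell genes lower. The part of these cell types in the changes of Cd84, Tgfb1, Btla, Ccl17 and the other genes below was not tested.

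With all 6 libraries, Cd84 was modestly higher and Tgfb1 modestly lower under added KCl, and the other 8 genes, Cd274 among them, were not called. In that fit, 2 of the 10 genes passed an adjusted p of 0.05 in the quasi-likelihood test of edgeR, adjusted by Benjamini-Hochberg over all tested genes, against 22.9% of all tested genes. The median log2 fold change (KCl minus control) was 0.11 over the 10 genes and -0.004 over all tested genes. From replicates 1 and 2 alone, edgeR called 0 of the 10, against 0.458% of all genes tested there. Before adjustment, edgeR's p was under 0.05 for 4 of the 10 (Cd84, Sirpa, Vsir and Havcr2). The share of all genes under that unadjusted limit is not reported here, so these 4 cannot be read as an excess.

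**Figure D1:**
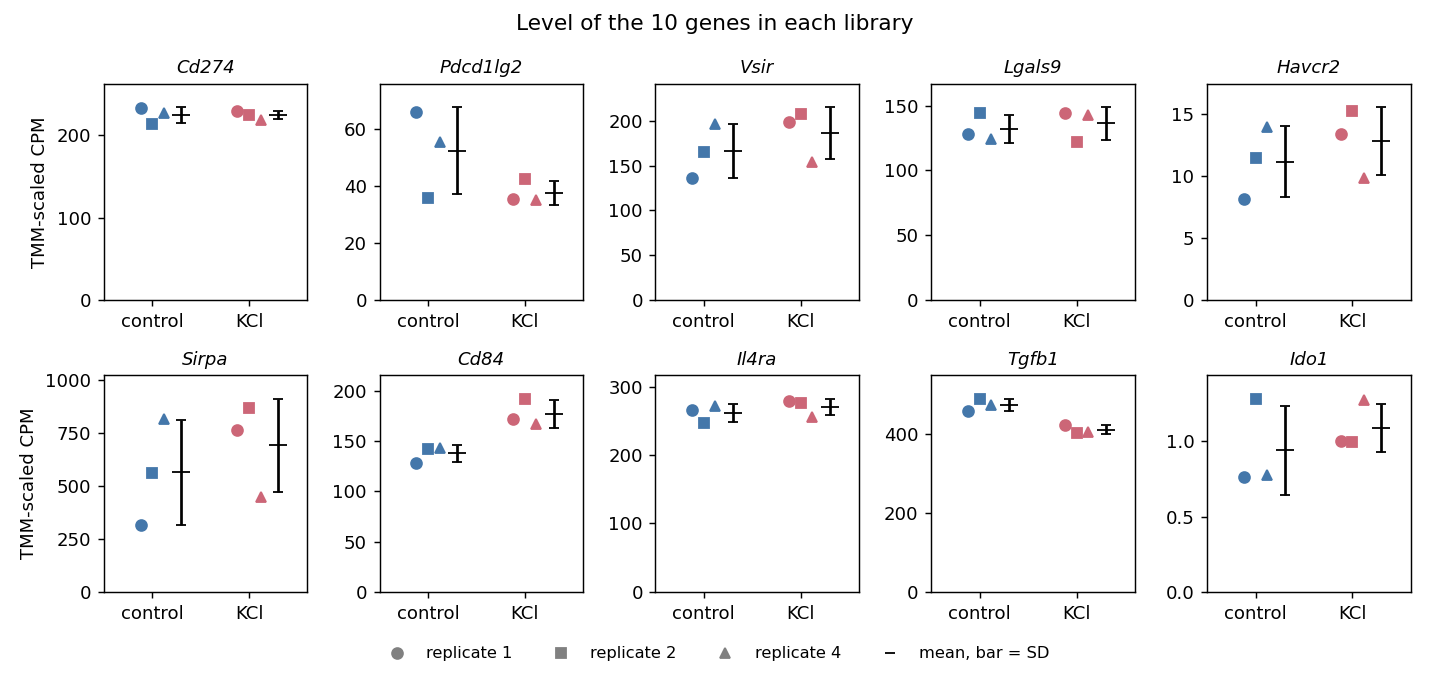
TMM-scaled CPM (vertical axes, each from 0) of the 10 genes in control and KCl libraries, with a symbol per replicate number and the mean with its SD in black. Only Cd84 and Tgfb1 of the 10 have groups that do not overlap, against 38.5% of all tested genes.

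Among the T cell ligands, Cd274 was steady. Control 1, 2 and 4 gave 233, 213 and 227 CPM, and KCl 1, 2 and 4 gave 229, 225 and 219 CPM. The groups overlapped throughout, with means of 224 ± 9.998 and 224 ± 5.32 CPM (SD, n = 3 each). The log2 fold change was 0.00 with a 95% interval of -0.13 to 0.13, which is a change between -8.3% and 9.13%. Replicates 1 and 2 alone gave 0.03 ± 0.08 (SE) with a wider interval, from -11.6% to 17.3%.

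Pdcd1lg2, whose product binds PD-1 as PD-L1 does, was more variable. Its control libraries gave 66.1, 35.8 and 55.6 CPM, and its KCl libraries 35.5, 42.6 and 35.1 CPM. Control 1 and control 4 were higher than every KCl library, and control 2 lay among the KCl values. The log2 fold change was -0.48 ± 0.23 (SE, 95% interval -1.02 to 0.07, edgeR adjusted p = 0.202). It passed the threshold only when control 2 was left out (-0.69, edgeR adjusted p = 0.0211), and was -0.39 from replicates 1 and 2. An antisense gene, A930007I19Rik, overlaps the end of Pdcd1lg2 and had 381 to 679 counts per library against 635 to 1388 for Pdcd1lg2. No source used here gives the strand setting of the counting, and reads of the pair cannot be told apart.

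The 2 ligand genes are neighbours on chromosome 19 of mm10 (GRCm38), both on the plus strand: Cd274 (ENSMUSG00000016496) from 29367455 to 29388095 and Pdcd1lg2 (ENSMUSG00000016498) from 29410919 to 29471161. GENCODE M21 places 22823 bases and 0 protein-coding genes between them. Per length (FPKM), Pdcd1lg2 stood at 0.626, 0.37 and 0.538 times the level of Cd274 in control 1, 2 and 4, and at 0.34, 0.417 and 0.354 times in KCl 1, 2 and 4. Control 2 again fell within the KCl values. The mean ratios of 0.511 ± 0.13 and 0.37 ± 0.041 (SD, n = 3 each) gave p = 0.2 in a 2-sided exact permutation test, where the smallest possible p is 0.1.

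Because these neighbours had different spreads, and because Cd84 and Tgfb1 were the genes called, the 250 bases before the RefSeq start (build GRCm38.p6) of these 4 genes are shown, 5′ to 3′. They are chr19:29367188-29367437, chr19:29410669-29410918, chr1:171839447-171839696 and chr7:25686752-25687001, all on the plus strand. Capitals mark a match to any of 4 motifs searched on both strands.
Cd274: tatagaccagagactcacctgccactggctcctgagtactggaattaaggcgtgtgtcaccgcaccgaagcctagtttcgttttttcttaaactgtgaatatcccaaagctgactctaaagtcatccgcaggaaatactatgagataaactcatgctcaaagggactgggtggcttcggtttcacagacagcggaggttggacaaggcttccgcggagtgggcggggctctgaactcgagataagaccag
Pdcd1lg2: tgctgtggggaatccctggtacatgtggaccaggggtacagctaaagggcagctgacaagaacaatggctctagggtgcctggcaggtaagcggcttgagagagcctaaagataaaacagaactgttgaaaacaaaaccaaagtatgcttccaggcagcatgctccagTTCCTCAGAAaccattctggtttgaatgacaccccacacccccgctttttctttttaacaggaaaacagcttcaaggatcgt
Cd84: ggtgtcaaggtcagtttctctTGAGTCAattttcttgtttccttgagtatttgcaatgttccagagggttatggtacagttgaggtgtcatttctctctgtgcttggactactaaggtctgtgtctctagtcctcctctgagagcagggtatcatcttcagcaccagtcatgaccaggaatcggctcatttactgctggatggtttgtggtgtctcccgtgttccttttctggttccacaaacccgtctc
Tgfb1: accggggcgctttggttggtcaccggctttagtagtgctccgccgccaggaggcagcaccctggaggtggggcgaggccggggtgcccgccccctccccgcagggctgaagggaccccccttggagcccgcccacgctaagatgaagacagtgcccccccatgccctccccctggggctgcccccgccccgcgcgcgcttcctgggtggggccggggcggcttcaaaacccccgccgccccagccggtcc

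The letters searched were TTCNNNNGAA (bound by STAT6), TTTCNNTTTC (interferon response), TGGAAA (NFAT core) and TGANTCA (AP-1). The STAT6 letters stood 82 bases before the start of Pdcd1lg2 and occur in 5.85% of all 32851 RefSeq windows of this length. The AP-1 letters stood 229 bases before the start of Cd84, and 6.75% of windows hold them. No marked matches overlapped. RefSeq windows matched 8 of the 10 genes, not Sirpa and Ido1. Of the other matched genes, Havcr2 held the AP-1 letters and Lgals9 the interferon response letters, which 2.98% of windows hold. The NFAT core (18.6% of windows) was in none of the 8 windows. A match is a string of letters, not a binding site.

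Vsir encodes VISTA, a B7-related checkpoint protein that is abundant on myeloid cells. Levels were 136, 165 and 197 CPM in control against 198, 208 and 154 CPM in KCl. KCl 1 and KCl 2 were the highest libraries, but KCl 4 lay below control 2 and control 4. The log2 fold change was 0.17 ± 0.17 (SE, 95% interval -0.24 to 0.57) with all 6 libraries and 0.43 ± 0.11 from replicates 1 and 2, where edgeR's adjusted p was 0.105. Vsir (chromosome 10, 60346851 to 60372684) lies wholly within Cdh23, which is on the opposite strand and had only 58 to 133 counts per library, against 2775 to 3773 for Vsir.

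Lgals9 encodes galectin-9, a sugar-binding protein that is a ligand of TIM-3. Control libraries gave 128, 144 and 124 CPM and KCl libraries 144, 122 and 143 CPM, so that the groups overlapped. Its log2 fold change of 0.04 had a 95% interval of -0.18 to 0.27, and was -0.04 ± 0.12 from replicates 1 and 2. Havcr2, which encodes the receptor TIM-3 itself, was scarce: 8.14, 11.4 and 13.9 CPM in control and 13.4, 15.2 and 9.79 CPM in KCl, from 171 to 261 counts per library. As for Vsir, KCl 4 lay below control 4 while KCl 1 and KCl 2 lay above control 1 and control 2. Havcr2 had a log2 fold change of 0.21 ± 0.24 (SE, 95% interval -0.37 to 0.79), and 0.55 ± 0.20 from replicates 1 and 2 (edgeR adjusted p = 0.16).

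Sirpa encodes SIRP-alpha, the receptor for the "don't eat me" protein CD47, and was the most variable of the 10 genes. Control 1, 2 and 4 held 317, 562 and 814 CPM and KCl 1, 2 and 4 held 764, 868 and 446 CPM, a 2.74-fold range between libraries. KCl 4 was lower than 2 of the 3 control libraries and control 4 was higher than 2 of the 3 KCl libraries. These are not separate observations, as the mean of control 4 and KCl 4 tracked that of the remaining libraries. With all 6 libraries the log2 fold change was 0.30 ± 0.39 (SE, 95% interval -0.64 to 1.23, edgeR adjusted p = 0.661). From replicates 1 and 2 it was 0.89 ± 0.28 (edgeR adjusted p = 0.129), and without control 1 alone it was -0.0034. Its ligand gene Cd47 stood at 429 ± 29.9 CPM in control and 413 ± 86.6 in KCl (log2 fold change -0.06 ± 0.15).

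The libraries of Sirpa and Havcr2 fell in the same order, from control 1 through KCl 4, control 2, KCl 1 and control 4 to KCl 2, and Vsir differed only in that control 4 and KCl 1 changed places. In 4 of the 10 genes (Vsir, Havcr2, Sirpa and Il4ra), KCl 4 lay on the opposite side of control 4 from the side on which KCl 1 and KCl 2 lay of control 1 and control 2. This was so for 30.4% of the tested genes. With the mean of control 4 and KCl 4 tied to that of the remaining libraries, a high control 4 goes with a low KCl 4. The neutrophil marker genes Ly6g, Retnlg and Cxcr2 followed the order of Sirpa, as did 2.47% of all tested genes. Ly6g stood at 22.2, 33.2 and 49.8 CPM in control and 37.3, 66.6 and 26.8 CPM in KCl. Retnlg stood at 12.6, 19.6 and 46.0 CPM in control and 39.8, 60.4 and 17.4 CPM in KCl. How many of the 12 neutrophil markers share this order is not reported here. Their summed level, in which abundant genes weigh most, did not follow it. The sum ran from 15545 to 16928 CPM in control and from 18825 to 24384 CPM in KCl, with KCl 4 above every control. No marker of the list was at 0, and the part of granulocytes in the Sirpa values was not tested. In bulk RNA, fewer cells of a type and less RNA per cell cannot be told apart.

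**Figure D2:**
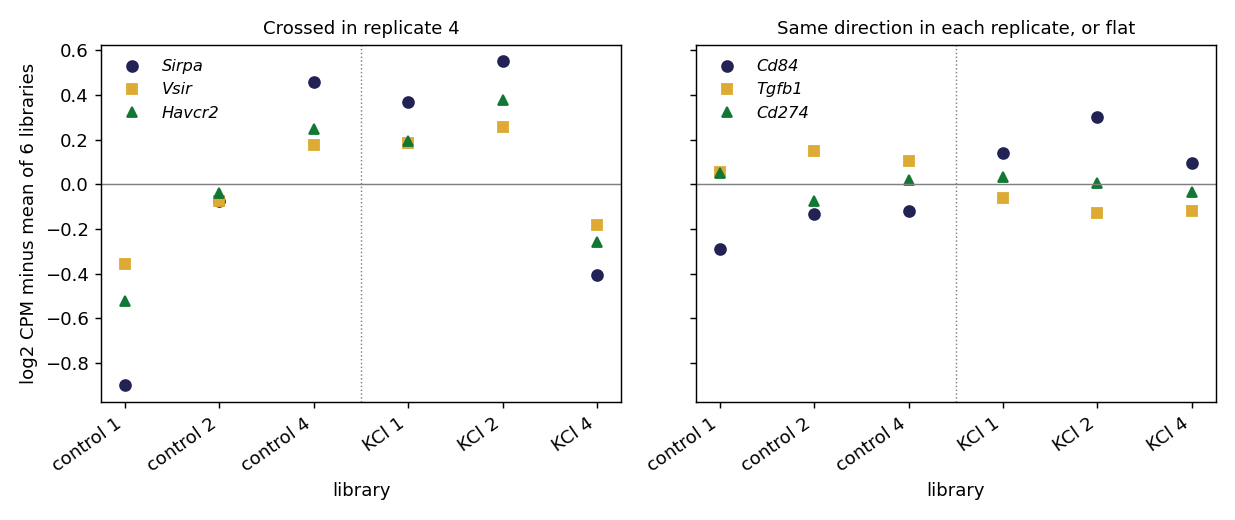
Log2 CPM of each library minus the mean of the 6 libraries (vertical axis) for Sirpa, Vsir and Havcr2 (left) and for Cd84, Tgfb1 and Cd274 (right). On the left control 4 lies above 0 and KCl 4 below it. Each follows from the other, as the mean of control 4 and KCl 4 tracked that of the remaining libraries. On the right Cd84 and Tgfb1 separate the groups and Cd274 stays near 0.

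Cd84, a receptor of the SLAM family that binds itself on neighbouring cells, rose. Levels were 128, 142 and 143 CPM in control against 172, 192 and 167 CPM in KCl, so that every KCl library lay above every control library, as in either direction for 38.5% of all tested genes. Its log2 fold change was 0.36 ± 0.08 (SE, n = 3 per group, edgeR adjusted p = 0.0203), which is 28.4% higher with a 95% interval of 12.8% to 46.1%. The call was lost without control 4 (0.39, edgeR adjusted p = 0.0531) and from replicates 1 and 2 (0.43 ± 0.10, edgeR adjusted p = 0.0894). Cd84 (ENSMUSG00000038147) lies on chromosome 1 from 171839697 to 171890718.

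Tgfb1, which encodes the cytokine TGF-beta 1, fell. Control libraries held 457, 488 and 474 CPM and KCl libraries 422, 403 and 405 CPM. The groups did not overlap, as in either direction for 38.5% of all tested genes. Its log2 fold change was -0.21 ± 0.05 (SE, n = 3 per group, edgeR adjusted p = 0.0305), and the level fell by 13.3% (95% interval -20.3% to -5.72%). The call was lost without any 1 library other than control 1 (edgeR adjusted p from 0.0652 to 0.124) and from replicates 1 and 2 (-0.20 ± 0.08, edgeR adjusted p = 0.187). Tgfb1 (ENSMUSG00000002603) lies on chromosome 7 from 25687002 to 25705077.

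Il4ra encodes the receptor chain shared by interleukin-4 and interleukin-13 and is used as a marker of suppressor cells. Levels were 266, 247 and 273 CPM in control against 279, 276 and 256 CPM in KCl, and the groups overlapped. A log2 fold change of 0.05 had a 95% interval of -0.10 to 0.19, and the value from replicates 1 and 2 was 0.11 ± 0.08. Ido1 was scarce, with 16, 28 and 11 counts in control and 19, 17 and 23 in KCl. Its log2 fold change of 0.19 ± 0.28 had an interval of -0.48 to 0.86, and was -0.04 ± 0.41 from replicates 1 and 2.

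**Figure D3:**
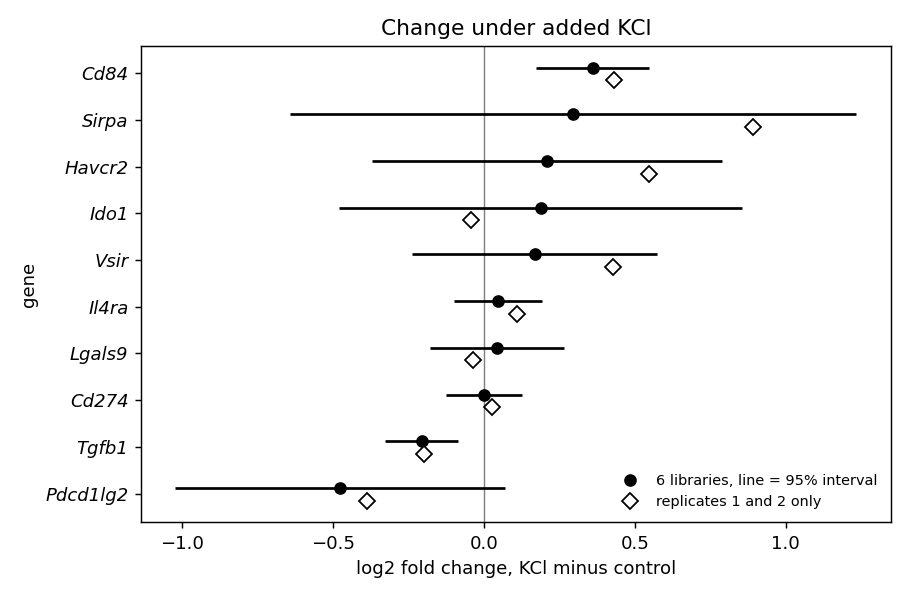
Log2 fold change, KCl minus control (horizontal axis), of each gene with all 6 libraries (filled, line for the 95% interval) and from replicates 1 and 2 only (open). The intervals of Cd84 and Tgfb1 leave out 0; Sirpa, Havcr2 and Vsir move to the right without replicate 4.

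Levels were ordered by FPKM, which allows for gene length. In control the order of mean FPKM was Tgfb1 (83.4), Cd274 (62.4), Sirpa (56.9), Lgals9 (40.7), Pdcd1lg2 (32.1), Il4ra (28.8), Vsir (24.3), Cd84 (18.2), Havcr2 (2.26) and Ido1 (0.519). The ranges of neighbouring genes from Cd274 down to Vsir overlapped, so that the order of neighbours is not resolved. Some genes further apart were resolved. Cd274 (lowest library 59.3) stood clear of Lgals9 (highest 44.5), and Lgals9 (lowest 38.1) of Il4ra (highest 29.9). Tgfb1 stood clear of Cd274, but the highest Sirpa library (81.8) lay above the lowest of Tgfb1 (80.8). Cd84, Havcr2 and Ido1 at the bottom stood clear of their neighbours. In KCl the order began with Tgfb1 (71.2), Sirpa (68.6) and Cd274 (61.5). The range of Sirpa overlapped those of Tgfb1 and Cd274, while Tgfb1 (lowest library 67.9) stood clear of Cd274 (highest 63.7). Pdcd1lg2 (22.7) came after Cd84 (23.05) with overlapping ranges. Havcr2 (2.55) and Ido1 (0.592) were again the lowest and apart from the rest.

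A total of 10 lists of related genes were read from the same fit, in which 33 of their 127 tested genes (26.0%) were called, against 22.9% of all tested genes. Of these, 14 were higher and 19 lower, against 12.4% higher and 10.5% lower among all tested genes. The counts below are to be read against these shares, and 9 of the lists are described. From replicates 1 and 2, 3 genes of the lists (Ccl17, Socs3 and Haao) passed, against 0.458% of all genes tested there. Of 17 tested checkpoint and costimulatory ligands outside the 10 genes, 2 rose, 3 fell and 12 did not pass, with a median log2 fold change of -0.12. Btla, an inhibitory receptor of lymphocytes and dendritic cells, fell from 23.2 ± 1.06 to 14.8 ± 0.986 CPM. Pvr, the ligand of TIGIT, fell from 24.8 ± 0.251 to 17.9 ± 0.921 CPM, and Tnfsf9, the 4-1BB ligand, rose from 5.54 ± 0.219 to 9.93 ± 1.07 CPM.

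Of 19 other inhibitory receptors, 1 rose and 1 fell, with a median of 0.11. Cd300a, whose tail carries inhibitory motifs, rose from 61.4 ± 8.34 to 95.3 ± 3.2 CPM. Cd5, a receptor of T cells and some B cells, fell from 20, 23 and 17 counts in control to 2, 1 and 0 counts in KCl. Of 10 phosphatases and adaptors that act below such receptors, 0 rose in edgeR and only Dok2 fell (-0.25 ± 0.06), a call lost without any 1 library other than control 1 (edgeR adjusted p from 0.0652 to 0.118). Ptpn6, which encodes SHP-1, stood at 432 ± 23.1 CPM in control and 432 ± 23.8 in KCl.

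Of 19 partners of the 10 genes, 2 rose, 2 fell and 15 did not pass (median 0.02). Pdcd1, the receptor of both PD-1 ligands, was scarce and fell from 4.67, 1.88 and 3.46 CPM in control to 0.893, 0.408 and 0.664 CPM in KCl, a call lost without KCl 4 (edgeR adjusted p = 0.0518). P4hb, a chaperone that galectin-9 binds at the cell surface, fell by 0.30 on the log2 scale. Cmtm4, which stabilises PD-L1, rose from 13.5 ± 0.632 to 19.5 ± 3.08 CPM, but missed the threshold without control 1, control 2, control 4 or KCl 4 (edgeR adjusted p from 0.0557 to 0.0861).

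Of the 8 SLAM family genes other than Cd84, 1 rose, 3 fell and 4 did not pass (median -0.28). Slamf8 rose from 3.29 ± 0.585 to 8.07 ± 0.686 CPM. Slamf1 fell from 13.4 ± 3.25 to 5.18 ± 0.928 CPM, and Slamf9 from 20.0 ± 0.126 to 15.8 ± 0.115 CPM, a call lost without KCl 4 (edgeR adjusted p = 0.0512). Of 5 galectin and TIM genes, 0 were called in edgeR (median 0.02). Lgals3, the most abundant, stood at 1267 ± 157 CPM in control and 1367 ± 150 in KCl.

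Of 12 interleukin-4 and STAT6 genes, 3 rose and 4 fell. The chemokine gene Ccl17 fell from 271, 223 and 243 CPM in control to 81.3, 75.8 and 88.7 CPM in KCl, and still passed from replicates 1 and 2 (edgeR adjusted p = 0.0355). The cytokine signalling inhibitor Socs3 rose from 66.8 ± 7.38 to 146 ± 5.6 CPM, also in both fits, and the kinase gene Jak3 fell from 54.9 ± 6.58 to 22.7 ± 1.37 CPM. Stat6 itself stood at 334 ± 20.5 CPM in control and 344 ± 18.4 in KCl.

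Of 14 TGF-beta receptor and SMAD genes, 5 rose and 1 fell, and the median was 0.25. Ski, a corepressor of SMAD proteins, rose from 133 ± 15.5 to 295 ± 22.4 CPM. Tgfbr3, the betaglycan coreceptor, rose from 23.5 ± 2.42 to 48.8 ± 2.25 CPM, and the inhibitory Smad7 from 12.8 ± 0.955 to 18.3 ± 1.08 CPM. Of 10 tryptophan and kynurenine genes, 0 rose and 2 fell in edgeR: Haao, an enzyme that leads from kynurenine towards NAD, from 26.6 ± 1.55 to 11.6 ± 0.662 CPM, and Ahr, the receptor that kynurenine activates, from 48.7 ± 4.63 to 25.4 ± 2.82 CPM. Haao also passed from replicates 1 and 2 (edgeR adjusted p = 0.0438).

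**Figure D4:**
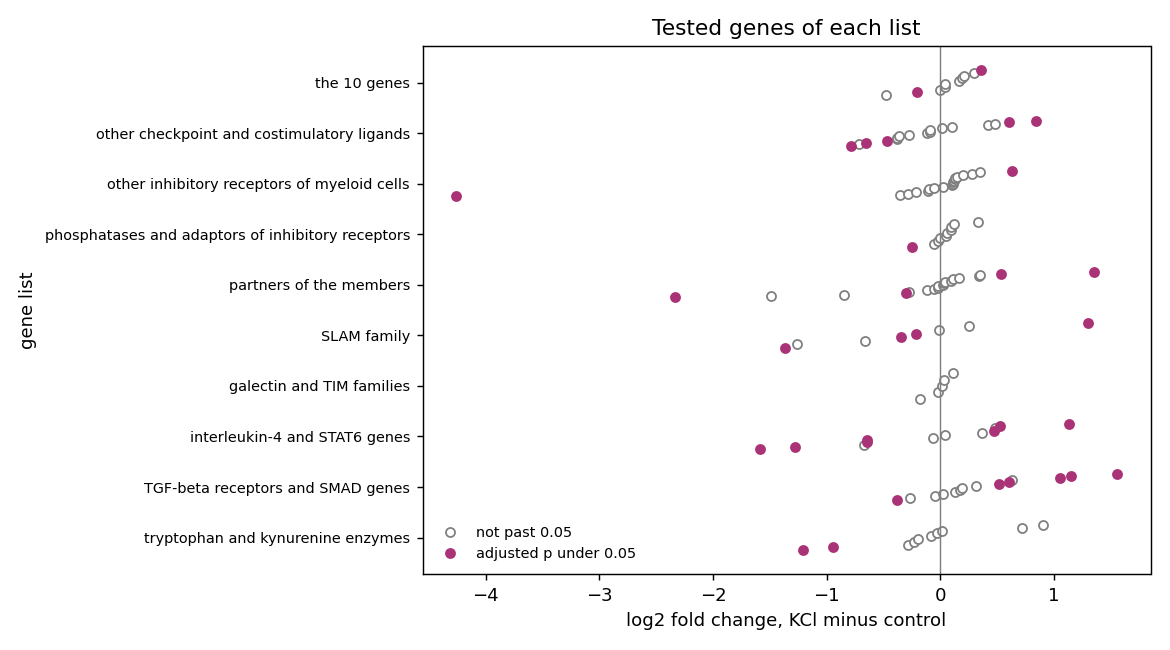
Log2 fold change, KCl minus control (horizontal axis), of each tested gene of the 10 genes and the 9 related lists described, with filled points for an adjusted p under 0.05 in the fit of 6 libraries. Most lists hold points on both sides of 0, and the far left point is Cd5.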

How the data were processed

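RNA of 6 libraries was sequenced. The tools named, per the submitters' processing notes, are edgeR, StringTie 1.3.3b and HISAT2 2.0.4, with build mm10. The counting program is not given in the sources used here. For each gene and library the authors deposited a read count, in whole numbers and unscaled, and an FPKM. The deposited FPKM served only to order levels and for the ratio of the PD-1 ligands. Groups and numbers came from the sample titles. Nothing in the labels ties libraries to separate mice or cultures, so p-values cover the spread between libraries, which may be technical.

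The test was run on counts with edgeR 4.0.16 in R 4.3.3 (filterByExpr with a minimum count of 10 and total of 15, TMM scaling, robust quasi-likelihood test, 2-sided, Benjamini-Hochberg over all tested genes, threshold 0.05). The SE is the unshrunk log2 fold change over the root of the test's F. CPM is TMM-scaled, except in marker sums and in the ratios of control 4 and KCl 4 to the other libraries. DESeq2 1.42.0 and limma 3.58.1 (voom) were alternatives. The test was also run on simulated data, and the outcome is not reported here.

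All 10 genes are named. The result of 1 of the 10 related lists is not reported here. From each other list, the 3 called genes with the smallest p are named. Ptpn6, Cd47, Lgals3, Stat6, Ly6g, Retnlg and Cxcr2 were added after their values were seen. The 10 genes and the lists were chosen with earlier results of these data known. Of 19162 gene IDs, 19049 matched GENCODE M21.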

Additional observations from a re-analysis of the deposited data

How the results depend on the processing

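Cd84 and Tgfb1 stayed called with DESeq2, limma-voom, 3 other scalings (library size, RLE, upper-quartile), a minimum mean CPM of 5 and no filter. Calls over all genes fell from 3057 to 1678 with the replicate block, 1573 with replicate 4 as a batch term and 62 from replicates 1 and 2, and ranged from 1439 to 2851 with 1 library left out. Of the 10 genes, 1 was called with the replicate block, 0 with the batch term (edgeR; adjusted p = 0.0577 for Cd84 and 0.103 for Tgfb1), 0 from replicates 1 and 2, and 0 to 2 with 1 library left out. Called genes of the related lists numbered 33, against 3 from replicates 1 and 2. Whether the numbers pair the libraries cannot be decided here, as control 4 and KCl 4 were tied to the other libraries. Deviations from the group means correlated over genes at 0.016, -0.118 and -0.991 for replicates 1, 2 and 4. No control library correlated best with its own number, but the tie alone shapes these values.

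Some log2 fold changes of genes that were not called turned sign. Cd274 was -0.0016 with RLE, -0.0455 with upper-quartile, -0.0207 with library-size scaling, -0.0212 with no filter and -0.0012 with DESeq2. Upper-quartile scaling gave -0.0009 for Lgals9 and -0.0003 for Il4ra, and replicates 1 and 2 gave -0.0352 for Lgals9 and -0.0433 for Ido1. With 1 library left out, Cd274 ranged from -0.0366 to 0.0178, Lgals9 from -0.001 to 0.118 and Sirpa from -0.0034 to 0.654. The cause of these changes of sign was not tested. Ordered by CPM, which does not allow for gene length, in place of FPKM, 2 of the 10 genes kept their place.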

Other observations

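The order of libraries seen for Sirpa, from control 1 at the bottom to KCl 2 at the top, was shared exactly by 329 of 13326 tested genes (2.47%, Sirpa included). Genes of this set with a mean of at least 10 CPM, picked after their values were seen, included the neutrophil chemokine receptor Cxcr2, at 51.8, 78.7 and 158 CPM in control 1, 2 and 4 and 134, 206 and 68.9 CPM in KCl 1, 2 and 4. They also included the ecto-enzyme gene Nt5e (CD73), at 45.8, 66.0 and 117 CPM in control and 100.4, 150 and 58.2 CPM in KCl, and the gelatinase gene Mmp9, at 309, 476 and 668 CPM in control and 581, 804 and 393 CPM in KCl.

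The Sirpa relatives Sirpb1a, Sirpb1b and Sirpb1c had 108 to 469 counts per library, against 6653 to 14891 for Sirpa. How reads of shared sequence were divided between them is not given in the sources used here.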
